A study of Drosophila melanogaster and Drosophila melanogaster
Drosophila virilis and Drosophila virilis with 9 samples.

Results

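The genes described here are 10 head patterning genes of *Drosophila melanogaster*, namely *oc* (orthodenticle), *ems*, *btd*, *hbn*, *toy*, *Optix*, *eya*, *so*, *Lim1* and *kn*. All 10 had a row in each of the 7 Drop-seq tables and in a pooled table of 1297 cells. They were followed through 5071 *D. melanogaster* cells of 7 libraries, out of 7999 barcodes that counted as cells. A cell was a barcode with at least 1000 unique molecular identifiers (UMIs, each marking 1 captured mRNA), at least 90% of them on *D. melanogaster* genes. Cells with at least 3000 UMIs were kept and thinned at random to exactly 3000, so that depth did not set whether a gene was detected.

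In the early fly embryo the head is laid out by overlapping domains of transcription factors rather than by the segmentation genes that divide the trunk. *oc*, *ems* and *btd* are head gap genes, read out directly from maternal and terminal gradients. *toy*, *Optix*, *eya* and *so* later form the retinal determination network, and are also used in the primordia of the brain and visual system in the embryonic head. The 10 genes are set below beside genes outside the 10, among them trunk Hox genes and other head genes. Members and lists were chosen with earlier results of these data known, so this is no independent check of the label "head patterning".

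Drop-seq joins a dissociated cell to a barcoded bead in a droplet. The mixed-species libraries (replicates 1 and 2) held *D. virilis* cells together with cells of a *D. melanogaster* y1 w1118 strain that carried P{st.2::Gal4} and also P{vnd::dsRED}. The single-species libraries (replicates 3 to 7) held cells of the same *D. melanogaster* strain alone, so every *D. melanogaster* cell carried both transgenes. Embryos were at stage 6, from 1 h egg lays aged for 2 h 30 min, or 3 h 30 min in *D. virilis*. For the dissociated, fixed cells of all 7 Drop-seq libraries the labels give 80% methanol and a 20 µm strainer. In addition, 1 bulk library of intact, unfixed *D. melanogaster* embryos was used. The labels do not say whether the libraries came from separate embryo collections, so the spread between libraries may be technical. The 7 tables held 8855169 to 21429520 UMIs each and gave 326 to 1055 cells per library after thinning, with median depths of 6360.5 to 11991 UMIs before it. At most 1 cell barcode was shared by any pair of libraries.

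*oc* and *toy* were the most widely detected of the 10 genes, and *hbn* and *eya* the rarest. After thinning, *oc*, a homeodomain factor, was detected in 307 of the 5071 cells, with a lowest library of 4.78%, a median of 5.61% and a highest of 7.77%. *toy*, a Pax6 factor at the top of the eye network, was detected in 201 cells (3.36%, 3.95% and 5.21%). *Optix*, a Six-family homeodomain factor, was the steadiest, at 2.41%, 2.72% and 2.97% of cells. The ranges of *toy* and *Optix* did not overlap, and every other pair of neighbours in the order of levels did overlap across libraries.

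*btd*, a zinc-finger factor of the Sp family, averaged 2.41% ± 0.682 of cells (SD, n = 7 libraries), and *ems*, a homeodomain factor of the posterior head, averaged 2.38% ± 0.971. *kn* (collier, an EBF-type factor needed in the posterior head) averaged 1.94% ± 0.674. *Lim1*, a LIM-homeodomain factor, averaged 1.73% ± 0.594 and *so*, a Six-family partner of *eya*, 1.38% ± 0.388. *eya*, a transcriptional co-activator and phosphatase, averaged 0.945% ± 0.241, and the homeodomain gene *hbn* 0.822% ± 0.209.

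Free RNA was measured in the *D. virilis* cells of the mixed-species libraries, which should hold no *D. melanogaster* transcript. In 1806 such cells, thinned in the same way (median depths of 5591 and 9344 UMIs before thinning), *Lim1* had a UMI in 5 cells (0.277%) and *oc*, *btd* and *kn* in 4 cells each (0.221%). *hbn* had a UMI in 0 of 1806 cells, which allows a share of up to 0.166%. The share in *D. melanogaster* cells was above this pooled background for all 10 genes in each of the 7 libraries. The smallest shares were those of *hbn* (0.448%) and *eya* (0.613%). Background in the single-species libraries could not be measured, because they held no *D. virilis* cells. The purity limit also dropped *D. virilis* barcodes with more *D. melanogaster* RNA. Within replicate 2, *Lim1* was detected in 0.976% of *D. melanogaster* cells, inside the counting interval of the *D. virilis* cells (0.423%, 0.0873 to 1.23). Every other share in the mixed-species libraries lay above the interval of its own library. Intervals and limits of this kind cover counting error only.

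**Figure D1:**
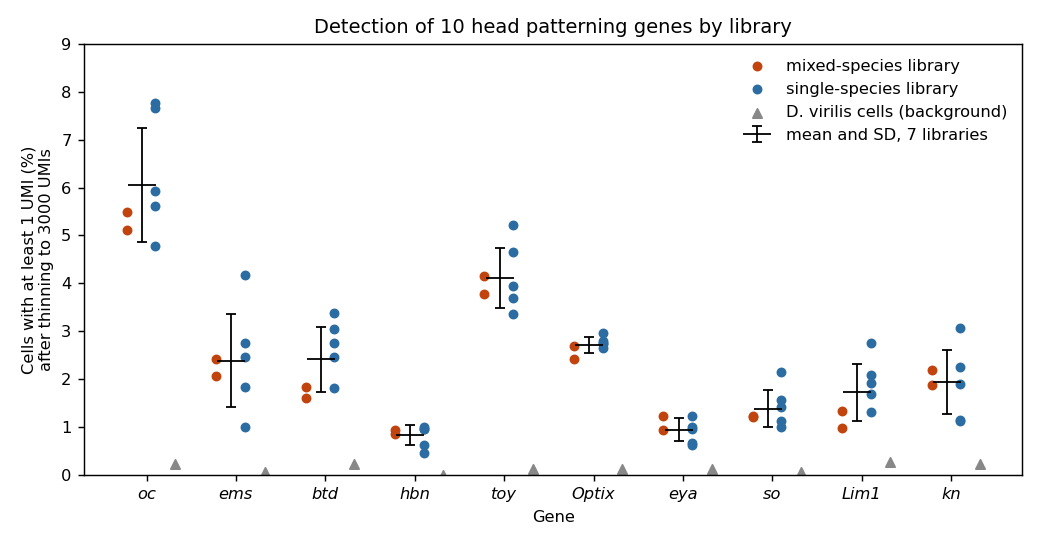
Percent of cells with at least 1 UMI of each gene after thinning to 3000 UMIs (y axis), for 10 genes (x axis). Points are single libraries, red for mixed-species and blue for single-species libraries. Bars are the mean and SD of 7 libraries, and grey triangles are *D. virilis* cells of the mixed-species libraries. Every library of *D. melanogaster* cells lies above the triangle of its gene, and *oc* and *toy* have the highest means. The triangles do not measure background in the single-species libraries.

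The levels of the 10 genes in summed Drop-seq cells ran from 3.57 ± 0.827 CPM (UMIs of the gene scaled to the UMIs of its library; SD, n = 7) for *hbn* to 31.7 ± 7.56 CPM for *oc*. *toy* stood second at 20.6 ± 3.31 CPM and *Optix* next at 11.4 ± 2.14 CPM, with *ems* at 11.2 ± 2.22 CPM. In the 1 bulk library *oc* had 105 CPM (95% exact Poisson interval 97.1 to 113) and *btd* 47.5 CPM (42.4 to 53.1). Per exon length, which allows genes to be set against each other, *oc* led the bulk library at 20.8 RPKM (CPM per kilobase of exon), followed by *btd* at 16.2 and *ems* at 11.5, with *Lim1* last at 1.41. The head gap genes held the 3 highest bulk levels per length.

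The ratio of Drop-seq to bulk varied between these genes, as it did among genes at large. The log2 ratio of the Drop-seq mean over bulk was −2.39 for both *btd* and *eya*, −1.72 for *oc*, −0.23 for *toy* and 0.03 for *Lim1*, where the median of 8728 genes was −0.90. Drop-seq counts transcript ends in dissociated, fixed cells and bulk counts whole transcripts of intact embryos, and there was 1 bulk library, so these ratios have no test. The bulk library was unstranded, and the annotation places 4 genes on the other strand within *so*, 1 transposon within *oc* and 15 transposon copies within *toy*, whose reads could not be told apart from theirs there. In bulk embryos fewer cells of a type and less RNA per cell cannot be told apart.

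Cells with several of the 10 genes were more common than independent detection would give. On average 82.7% ± 2.80 of cells (SD, n = 7 libraries) had none of the 10, and 12.2% ± 2.32 had 1, against 78.0% ± 2.90 and 19.7% ± 2.26 expected from the single-gene shares. Exactly 2 were seen in 3.60% ± 0.753 of cells, against 2.17% ± 0.580 expected. At least 3 were seen in 1.57% ± 0.516, against 0.144% ± 0.0607 expected, and the observed share of both classes was the higher in 7 of 7 libraries. Of the 307 *oc* cells, 180 held another of the 10. By library, 57.5% ± 9.68 of *oc* cells held another of the genes, against 12.0% ± 2.32 of cells without *oc*. The share was highest for *eya* cells at 71.7% ± 24.5 and lowest for *kn* cells at 30.7% ± 20.8, where cells without them stood at 16.5% ± 2.94 and 15.7% ± 2.61.

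The 45 pairs were then compared 1 by 1, as the number of cells with both genes against the number expected within each library. The most frequent pair was *oc* with *toy*, with 65 cells observed against 12.2 expected. The 65 cells were spread over replicates 1 to 7 as 10, 11, 16, 9, 6, 7 and 6 cells, and the observed number was the higher in 7 of 7 libraries. *oc* with *Lim1* was seen in 39 cells against 5.31 expected, at 3, 6, 12, 6, 2, 4 and 6 cells, again higher in 7 of 7. *oc* with *Optix* was seen in 35 cells against 8.28 expected, and *oc* with *btd* in 26 against 7.42, both higher in 7 of 7 libraries. *oc* with *ems* was seen in 34 cells against 7.62, higher in 6 of 7 libraries, with 0 cells in replicate 7.

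The highest ratio belonged to the rarest genes. *hbn* and *eya* shared 11 cells, at 1, 3, 1, 2, 0, 1 and 3 cells in replicates 1 to 7, where 0.396 were expected, a ratio of 27.8. *Optix* shared 10 cells with *hbn* (1.13 expected), 11 with *eya* (1.33 expected) and 19 with *btd* (3.23 expected). *ems* shared 16 cells with *btd* (3.04 expected) and 16 with *kn* (2.34 expected). Pairs between the posterior genes *ems* and *kn* and the anterior genes *hbn*, *eya* and *Optix* were at or near 0, with 0 cells for *ems* and *hbn* (1.03 expected), 0 for *kn* and *eya* (0.872 expected), 2 for *ems* and *Optix* (3.33 expected) and 1 for *kn* and *Optix* (2.50 expected). Numbers this small do not show a lack of overlap at this depth. *so* shared 1 cell with *eya* where 0.648 were expected, but 4 with another thinning seed (0.865 expected) and 30 with full counts within strata of depth (9.82 expected).

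Of the 45 pairs, 34 had more cells with both genes than expected on the mean of the libraries, and 29 had enough cells, observed or expected, to be tested. By the two-sided exact sign-flip permutation test over 7 libraries, whose smallest possible p is 0.0156, 14 pairs had an unadjusted p below 0.05 and 0 of 29 passed after Benjamini-Hochberg adjustment over the 29. The pairs at that smallest p were *oc* with *btd*, *toy*, *Optix* and *Lim1*, *ems* with *btd*, and *toy* with *Lim1*, with an adjusted p of 0.0697. With 29 tests and 7 libraries, a pair at this limit can pass only if enough other pairs share it. The 0 of 29 therefore does not show that an excess is lacking. The excess of *oc* with *toy* was 1.08 ± 0.358 percentage points of cells (SD, n = 7) and that of *ems* with *btd* 0.275 ± 0.210. Other settings called 12 pairs (thinning to 5000 UMIs) and 30 of 45 pairs (full counts within 10 strata of depth), all with more shared cells than expected. The 12 pairs were those at the smallest possible p. With the full counts all 45 pairs had a mean excess above 0, and depth still varied within a stratum. Thinning to 1500 UMIs called 0 of 15 tested pairs, and a need for 2 UMIs to detect called 0 of 4. At 95% purity 0 of 29 were called, in cells of the pooled table alone 0 of 9, and with another thinning seed 0 of 27. The smallest possible p was the same in these settings, so their counts of 0 carry the same limit. Shared cells were also summed over pairs, where a cell counts once for every pair it holds. The sum over the 45 pairs among the 10 was 472 against 129 expected, a ratio of 3.67. Over the 110 pairs of the 10 genes with 11 trunk and posterior genes it was 1122 against 2021, a ratio of 0.555. With full counts within strata of depth the ratio was 2.29 among the 10 and 0.823 with trunk and posterior genes.

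**Figure D2:**
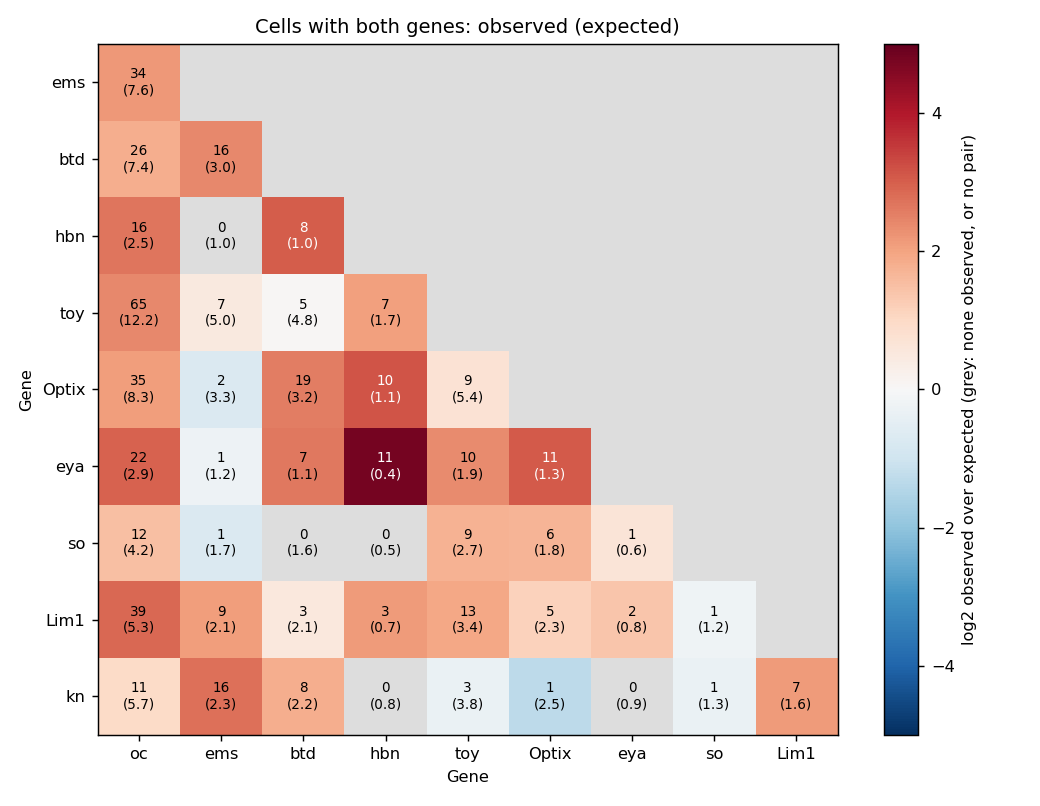
Number of cells with both genes of each pair, with the number expected from independent detection in brackets; both axes list genes and the colour gives the log2 of observed over expected. Rows and columns of *oc* are red throughout, *hbn* with *eya* is the darkest at 11 cells, and pairs of *ems* or *kn* with *hbn*, *eya*, *so* and *Optix* hold 0 to 2 cells.

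To measure levels rather than detection, full UMI counts were summed in each library over cells with a UMI of 1 gene after thinning ("*oc* cells") and over the other cells. The other cells can still hold UMIs of that gene in the full counts. Positive cells were set against negative cells by edgeR's quasi-likelihood test across all genes, with the library as a block and Benjamini-Hochberg adjustment over all genes tested. Of the 90 changes of 1 member in the cells of another, 50 were higher and 2 lower at an adjusted p of 0.05 or less. The 10 fits share libraries and cells and are not independent of each other. Genes outside the 10 were ranked below by log2 change if they moved in 1 direction in every library. They also needed at least 10 CPM in the higher sums. Median depths of positive and negative cells in the libraries ranged from 4217 to 29334 and from 6344.5 to 12386 UMIs, and with the thinned counts, at equal depth per cell, 38 of the 48 called changes that could still be fitted stayed past the threshold.

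In *oc* cells all 9 other members were higher, where 3.13% of 7307 genes were higher and 3.31% lower. *Lim1* had a lowest level of 24.4, a median of 32.9 and a highest of 140 CPM over the 7 libraries in *oc* cells, against 1.89, 2.84 and 4.40 CPM in other cells, a log2 change of 3.92 ± 0.27 (SE; adjusted p = 8.09e-14). The groups did not overlap, and the highest library stood far above the median. *toy* stood at 78.1, 123 and 189 CPM in *oc* cells, against 8.75, 13.0 and 20.2 CPM in other cells (log2 change 3.28 ± 0.16). *eya* (3.20) and *ems* (3.03) were higher in 7 of 7 libraries without overlap, and *hbn* (3.43) in 6 of 7. *so* rose by 2.10, *btd* by 1.99 and *Optix* by 1.97 on the log2 scale, also in 7 of 7 libraries. The call for *so* was lost with thinned counts (1.73, adjusted p = 0.150). *kn* rose least, at 1.27 ± 0.31 (adjusted p = 0.00550), in 5 of 7 libraries, and that call was lost without replicate 3 (1.15, adjusted p = 0.0744). The call for *kn* was also lost with thinned counts (0.75, adjusted p = 0.688). Without the library as a block (adjusted p = 0.0892) and by DESeq2, an alternative fit (adjusted p = 0.236), *kn* did not pass either.

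Outside the 10, the largest increases in *oc* cells were those of *Gsc* (goosecoid, a homeodomain repressor; log2 change 4.07 ± 0.32), *erm* (a zinc-finger factor; 3.95 ± 0.47), *yellow-e* (3.85), the non-coding *CR43302* (3.38) and *Gasp* (3.37). *Gsc* stood at 9.76, 41.9 and 61.7 CPM in *oc* cells, against 0.895, 1.81 and 3.87 CPM in other cells. The largest decreases were those of *stai* (−2.34), *Ect4* (−2.33) and *pnr* (a dorsal GATA factor; −2.32). Of 13 other head genes tested 7 rose, among them *tll* (2.49 ± 0.19), a terminal gap gene of the brain, *Six4* (2.11) and the forkhead gene *croc* (1.97), and *slp1* and *Dfd* fell. Their median was 1.08, that of all genes −0.01. Of 11 trunk and posterior genes 0 rose and 9 fell, such as *Ubx* (−2.06) and *Antp* (−1.59), with a median of −1.46. All 7 mesoderm genes fell.

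*ems* cells went with *oc*, *btd*, *kn* and *Lim1*. These 4 of the 9 other members were higher in *ems* cells, where 1.61% of 7414 genes were higher, and *Optix* was lower, where 2.02% were. *oc* stood at 81.8, 130 and 310 CPM (lowest, median and highest of 7 libraries) in *ems* cells, against 19.8, 29.0 and 36.2 CPM in other cells (log2 change 2.57 ± 0.16, adjusted p = 1.43e-37). *kn* stood at 16.1, 62.6 and 124 CPM in *ems* cells, against 3.84, 7.27 and 15.2 CPM in other cells (2.80 ± 0.26). *btd* rose by 2.66 and *Lim1* by 2.31, *Lim1* in 6 of 7 libraries. *Optix* had 6 UMIs in all *ems* cells and 870 in other cells, with 0, 1.68 and 7.91 CPM in *ems* cells, against 8.62, 11.9 and 14.4 CPM in other cells (−1.87 ± 0.54, adjusted p = 0.0209). It was lower in 7 of 7 libraries, but the call was lost without replicate 2, 3 or 4 (adjusted p = 0.121, 0.111 and 0.0721).

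The genes most like *ems* were *Pvf3*, a PDGF/VEGF-type ligand (2.77 ± 0.31), *Dll*, a homeodomain factor of appendage and antennal primordia (2.05 ± 0.19), *Gpo-1* (1.99), *ovo* (1.96) and *CG43184* (1.83). *stai* (−3.10), *gcm* (−3.01), a factor of glia and blood cells, and *ImpE2* (−2.79) fell most. Of 13 other head genes 5 rose, including *cnc*, a bZIP factor of head segments (1.72), and *Dfd* (1.01), the Hox gene of the maxillary region. *tll* fell, with 3 UMIs in *ems* cells, and that call was lost without replicate 3 (adjusted p = 0.0757). Of 11 trunk genes 8 fell and 0 rose, and all 7 mesoderm genes fell.

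*btd* cells had 6 of 9 other members higher, where 1.35% of 7531 genes were higher. *kn* stood at 41.9, 62.6 and 149 CPM in *btd* cells, against 2.11, 6.18 and 13.2 CPM in other cells (log2 change 3.35 ± 0.26, adjusted p = 1.77e-16). *Optix* stood at 34.9, 55.5 and 116 CPM in *btd* cells, against 6.87, 10.7 and 13.5 CPM in other cells (2.64 ± 0.24). Both were without overlap between groups. *hbn* (3.57) and *eya* (2.69) rose in 6 of 7 libraries, and *ems* (2.12) and *oc* (1.53) in 7 of 7. *toy*, *so* and *Lim1* had log2 changes between −0.41 and 0.33 that did not pass the test.

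*btd* cells also had *Six4* (3.36 ± 0.31), *CG14204* (3.07), *cnc* (2.79 ± 0.16), *dpr9* (2.55) and *Bili* (2.52) among the largest increases. *cnc* stood at 117, 223 and 396 CPM in *btd* cells, against 16.1, 33.0 and 41.4 CPM in other cells. *Sp1*, a neighbour and relative of *btd*, rose by 3.23 and *gcm* by 3.41. All 11 trunk and posterior genes fell, where 2.46% of genes did, with a median log2 change of −2.14 against −0.05 for all genes. *Abd-B*, the most posterior Hox gene, had 5 UMIs in *btd* cells and 3586 in other cells (−4.27 ± 0.39), and *pgc*, a pole cell gene, fell by 3.85. *CG7191* had 1 UMI in *btd* cells, a ratio of 0.0505 (95% counting interval 0.00128 to 0.282). Mesoderm genes did not move together in *btd* cells, with *zfh1* higher, *Mef2* lower and 5 others not past the test.

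*hbn* cells were few, 36 in the 5 libraries with at least 5 of them (replicates 4 and 6 were left out). In them 5 of 9 other members were higher, where 1.03% of 7102 genes were. *eya* had 55.5 to 242 CPM in *hbn* cells with a median of 103, against 3.05 to 3.85 CPM with a median of 3.13 in other cells (log2 change 4.90 ± 0.36, adjusted p = 1.24e-38). *toy* (3.02 ± 0.28), *Optix* (2.98 ± 0.34) and *oc* (2.62 ± 0.24) were also higher in 5 of 5 libraries. *Lim1* rose by 2.23 in 3 of 5 libraries, a call lost without replicate 3 (0.94, adjusted p = 0.824). That call was also lost with thinned counts (adjusted p = 0.361) and by DESeq2 (adjusted p = 0.385). *ems* had a log2 change of −3.12 that did not pass the test (adjusted p = 0.112).

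The genes most like *hbn* were *Six4* (4.91 ± 0.35), a Six-family homeodomain factor, *CG14204* (4.22 ± 0.31), *PGRP-SC2* (3.99), *Gasp* (3.54) and *Bili* (2.90). *Six4* stood at 61.7, 99.5 and 218 CPM in *hbn* cells, against 2.75, 3.37 and 7.00 CPM in other cells. *tll* rose by 2.99. *gcm* and *CG30287* had 0 UMIs in *hbn* cells, which puts their ratios at no more than 0.258 and 0.418 (3 counts over the group), and *Act87E* had 1 UMI, a ratio of 0.0343 (0.000869 to 0.191). The call for *gcm* was lost without replicate 3 (adjusted p = 0.184) and that for *CG30287* without any 1 of the 5 libraries (adjusted p of 0.0576 to 0.234). By DESeq2 neither *gcm* nor *CG30287* passed (adjusted p = 0.144 and 0.448). All 7 mesoderm genes fell in *hbn* cells, where 1.73% of genes did, with a median of −2.70, and 4 of 11 trunk genes fell.

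*toy* cells had 5 of 9 other members higher, where 1.52% of 7477 genes were higher. *oc* stood at 109, 251 and 313 CPM in *toy* cells, against 17.9, 21.8 and 33.3 CPM in other cells (log2 change 3.15 ± 0.13, adjusted p = 2.28e-18). *eya* stood at 13.3, 37.9 and 55.6 CPM in *toy* cells, against 1.77, 3.35 and 4.24 CPM in other cells (3.33 ± 0.30). *so* (2.47) and *Lim1* (2.27) rose in 7 of 7 libraries, the call for *so* being lost with thinned counts (1.74, adjusted p = 0.258). *hbn* rose by 2.24 in 5 of 7, a call lost without replicate 2 (1.45, adjusted p = 0.129). That call was also lost with thinned counts (adjusted p = 0.267) and by DESeq2 (adjusted p = 0.601). *ems* (0.28), *Optix* (0.36) and *btd* (0.56) did not pass the test, nor did *kn* (−0.72, adjusted p = 0.715).

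*CG15696* was the gene most like *toy* (4.49 ± 0.41), at 7.94, 27.3 and 107 CPM in *toy* cells, against 0.355, 1.68 and 3.19 CPM in other cells. *Gasp* (3.36), the homeodomain gene *Hmx* (3.26), *yellow-e* (3.14) and *CR43302* (2.92) followed. *CR45900* (−2.42), *CG7191* (−1.98) and *DNaseII* (−1.86) fell most. Of 14 other head genes 3 rose, *tll* (2.50), *gt* and *slp2*, and 0 fell. Dorsal genes went with *toy*, with 4 of 10 higher (*Doc1*, *Doc2*, *Doc3* and *Ance*, at 0.70 to 1.00) and 0 lower, and 6 of 11 trunk genes fell, where 1.4% of genes did.

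*Optix* cells had 6 of 9 other members higher, where 2.14% of 7534 genes were higher. *hbn* had the largest change, 3.67 ± 0.40, in 6 of 7 libraries, followed by *eya* at 3.26 ± 0.36. *eya* stood at 3.31, 30.9 and 91.2 CPM in *Optix* cells, against 2.85, 3.58 and 4.91 CPM in other cells, and the groups overlapped. *oc* (1.97) and *btd* (1.80) rose in 6 of 7 libraries. *so* rose by 1.58, a call lost without replicate 6 (0.96, adjusted p = 0.259), and *toy* by 0.78, lost without replicate 1, 2 or 7 (adjusted p = 0.143, 0.0789 and 0.0549). With thinned counts neither *so* nor *toy* passed (adjusted p = 0.180 and 0.851), and by DESeq2 *so* did not (adjusted p = 0.160). *ems* (−0.26), *kn* (−1.24) and *Lim1* (0.87) did not pass the test.

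Among other genes *croc*, a forkhead factor of the foregut and anterior head, rose most in *Optix* cells (4.13 ± 0.21), at 32.2, 116 and 165 CPM in *Optix* cells, against 3.79, 5.99 and 9.52 CPM in other cells. *fd102C*, another forkhead gene (3.47), *nrm* (3.16), *CG11905* (3.13) and *CG8260* (3.00) followed, and *Six4* (3.16) and *cnc* (2.61) were also higher. *gcm* fell by 2.57. *ham* and *CG7191* had 3 UMIs each, ratios of 0.105 (0.0216 to 0.307) and 0.136 (0.0280 to 0.399). All 11 trunk and posterior genes fell in *Optix* cells, where 2.63% of genes did, with a median of −1.80.

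*eya* cells, 47 in 6 libraries (replicate 6 was left out), had 6 of 9 other members higher, where 1.03% of 7116 genes were higher. *hbn* stood at 0 to 108 CPM with a median of 74.9 in *eya* cells, against 1.25 to 5.06 CPM with a median of 3.11 in other cells (log2 change 4.57 ± 0.43, adjusted p = 1.09e-23). *oc* (2.78 ± 0.24), *Optix* (2.56 ± 0.39) and *btd* (2.24 ± 0.44) were higher in 6 of 6 libraries without overlap, *toy* (2.38) in 5 of 6 and *so* (2.57) in 4 of 6. *ems* (0.44), *Lim1* (0.27) and *kn* did not pass the test.

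*Six4* (4.34), *Gasp* (3.76 ± 0.42), *CR43302* (3.51), *CG42342* (3.16 ± 0.16), *Bili* (2.97) and *nrm* (2.89) were higher in *eya* cells, and *tll* by 2.55. *gcm*, *CG10663* and *croc* had 0 UMIs in *eya* cells, which puts their ratios at no more than 0.279, 0.369 and 0.464 (3 counts over the group). Each of these 3 calls was lost without replicate 3 (adjusted p = 0.0899, 0.0796 and 0.152), that for *CG10663* also without replicate 2, 4 or 7 and that for *croc* without any 1 of the 6 libraries. By DESeq2 none of the 3 passed (adjusted p = 0.187, 0.321 and 0.533). Of 12 other head genes 2 rose and 4 fell. All 7 mesoderm genes fell, where 2.07% of genes did, with a median of −2.68, and 8 of 11 trunk genes fell. The summed level of 6 pole cell genes was 21.5 to 2700 CPM in *eya* cells and 232 to 418 CPM in other cells, so 1 or more libraries held a strong pole cell signal in few *eya* cells, whose part in the results was not tested.

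*so* cells had 3 of 9 other members higher, where 1.49% of 7368 genes were higher. *oc* stood at 25, 95.1 and 316 CPM in *so* cells, against 20.0, 28.6 and 44.0 CPM in other cells (log2 change 1.79 ± 0.24, adjusted p = 1.38e-11), with overlap between groups. *toy* rose by 1.61 ± 0.29 in 7 of 7 libraries, a call lost with thinned counts (1.35, adjusted p = 0.108). *eya*, the partner of *so* in the retinal network, rose by 1.81 ± 0.50 in 4 of 7, a call lost without replicate 3 or 5 (adjusted p = 0.558 and 0.296). By DESeq2 the call for *eya* was lost as well (adjusted p = 0.693). *btd* had a log2 change of −0.99 that did not pass the test.

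The genes most like *so* were *mtt*, a receptor of the metabotropic glutamate type (3.97 ± 0.41), *Aldh* (3.24), *SP2353* (3.14), *CG31038* (2.95) and *CR46089* (2.47). *fkh* (1.67) and *hkb* (1.72), gut and terminal genes, rose with them, 3 of 7 genes of the posterior terminal and gut list being higher and 0 lower. By DESeq2, an alternative fit, neither *fkh* nor *hkb* passed (adjusted p = 0.148 and 0.600). *Doc2* (1.35) and 4 of the other 9 dorsal genes were higher as well. *abd-A* (−3.17), *CG11275* (−2.98) and *os* fell most, *os* with 1 UMI and a ratio of 0.0656 (0.00166 to 0.366), and 7 of 11 trunk genes fell, where 1.68% of genes did. The median depth of *so* cells was the higher in 6 of 7 libraries. With thinned counts the calls for *Aldh*, *SP2353* and *CR46089* were lost (adjusted p = 0.638, 0.313 and 0.297). Those for *Doc2* and *os* were lost as well (adjusted p = 0.204 and 0.0796).

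*Lim1* cells had *oc*, *ems*, *toy* and *kn* higher among 9 members, where 1.03% of 7461 genes were higher. *oc* stood at 84.3, 173 and 628 CPM in *Lim1* cells, against 14.5, 27.8 and 31.1 CPM in other cells (log2 change 3.29 ± 0.20, adjusted p = 1.59e-26). *ems* (2.55 ± 0.33) and *toy* (2.19 ± 0.26) rose in 6 of 7 libraries. *kn* rose by 1.58 in 4 of 7, a call lost without replicate 2 or 6 (adjusted p = 0.0938 and 0.667). That call was also lost with thinned counts (adjusted p = 0.0897), without the library as a block (adjusted p = 0.136) and by DESeq2 (adjusted p = 0.749).

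*CenG1A* (3.46 ± 0.37), *pros*, a homeodomain factor of neural precursors (1.95 ± 0.18), *Adgf-A* (1.90), *ovo* (1.83) and *nrm* (1.71) were the genes most like *Lim1*. *Lim1* cells differed in dorsoventral genes, with 8 of 10 dorsal ectoderm and amnioserosa genes lower and 0 higher, such as *pnr* (−2.29) and *Ance* (−2.05), where 1.49% of genes were lower. Of 8 ventral neurogenic genes 4 rose and 0 fell, such as *sog* (1.20), an inhibitor of Dpp, and *brk* (1.03), a repressor of Dpp targets. *bnl*, an FGF ligand, fell by 2.99, and *Alk* and *CG7191* had 3 and 2 UMIs, ratios of 0.102 (0.0210 to 0.298) and 0.147 (0.0177 to 0.532). The call for *CG7191* was lost without replicate 3, 5 or 6 (adjusted p = 0.216, 0.0699 and 0.102) and by DESeq2 (adjusted p = 0.228). The summed pole cell level was 79.4 to 1616 CPM in *Lim1* cells and 209 to 446 CPM in other cells, and its part was not tested.

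*kn* cells had *ems* and *btd* higher and *Optix* lower among 9 members, where 0.961% of 7596 genes were higher and 1.29% lower. *ems* stood at 0, 69.1 and 100 CPM in *kn* cells, against 4.78, 9.48 and 13.4 CPM in other cells (log2 change 2.82 ± 0.26, adjusted p = 6.94e-22), higher in 6 of 7 libraries. *btd* rose by 2.41 ± 0.30 in 7 of 7, a call lost with thinned counts (1.59, adjusted p = 0.165). *Optix* had 5 UMIs in *kn* cells and 871 in other cells (−2.05 ± 0.59, adjusted p = 0.0273), lower in 7 of 7 libraries, and the call was lost without replicate 1, 2, 3, 4 or 7 (adjusted p of 0.0520 to 0.285). That call was also lost without the library as a block (adjusted p = 0.0978) and by DESeq2 (adjusted p = 0.276). *oc*, which rose in the cells of the other 8 genes, had a log2 change of 0.67 that did not pass the test (adjusted p = 0.0926), and it passed without replicate 1, 5 or 7 (adjusted p = 0.0173, 0.0176 and 0.0166).

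*gcm* (2.77 ± 0.22), the nuclear-receptor-type genes *knrl* (2.47 ± 0.12) and *kni* (1.92), *cnc* (2.43) and *CrebA*, a bZIP factor of secretory genes (2.33), were the genes most like *kn*. *knrl* stood at 219, 432 and 718 CPM in *kn* cells, against 64.4, 72.6 and 90.4 CPM in other cells. *lab*, the Hox gene of the intercalary region, rose by 2.75 but did not meet the limits for that ranking. *croc* had 0 UMIs in *kn* cells, a ratio of no more than 0.189, and *ImpE2* (−2.83) and *pgc* (−2.51) fell. Of 12 other head genes 7 rose and 1 fell, and 9 of 11 trunk genes fell.

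**Figure D3:**
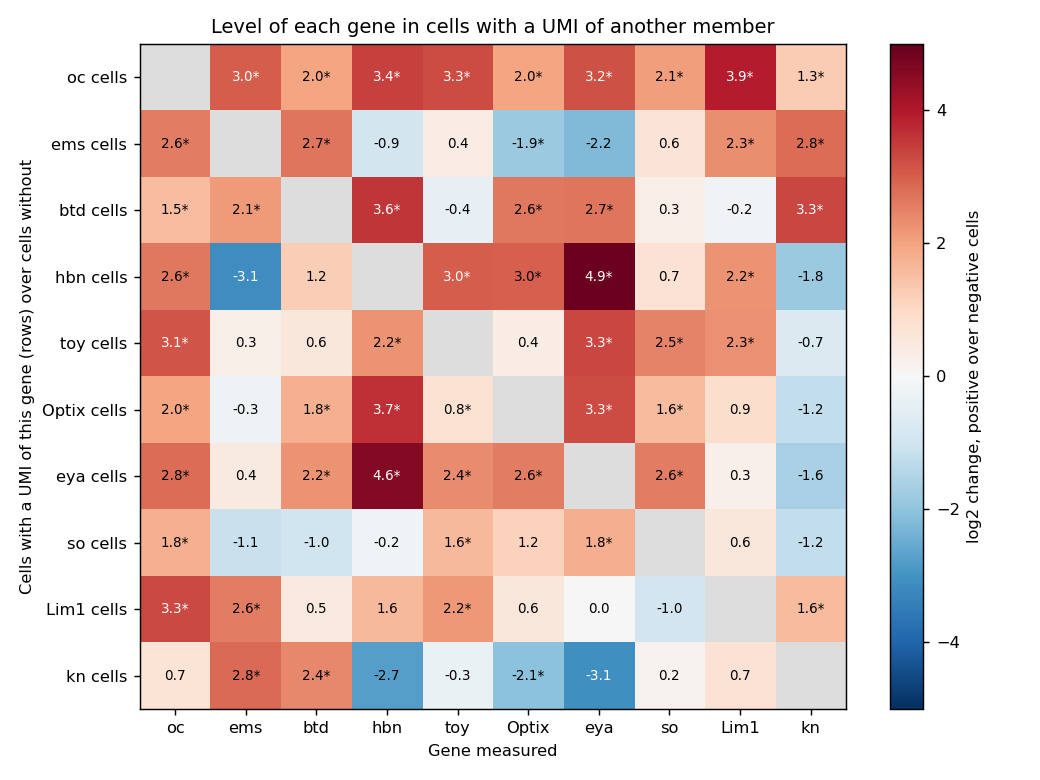
Log2 change of each gene (columns) in cells with a UMI of another gene (rows) over cells without one, from sums per library; asterisks mark changes at an adjusted p of 0.05 or less. The row of *oc* cells is red in all 9 columns, *hbn* and *eya* form the darkest pair at 4.90 and 4.57, and *Optix* is blue with an asterisk in *ems* cells and *kn* cells.

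**Figure D4:**
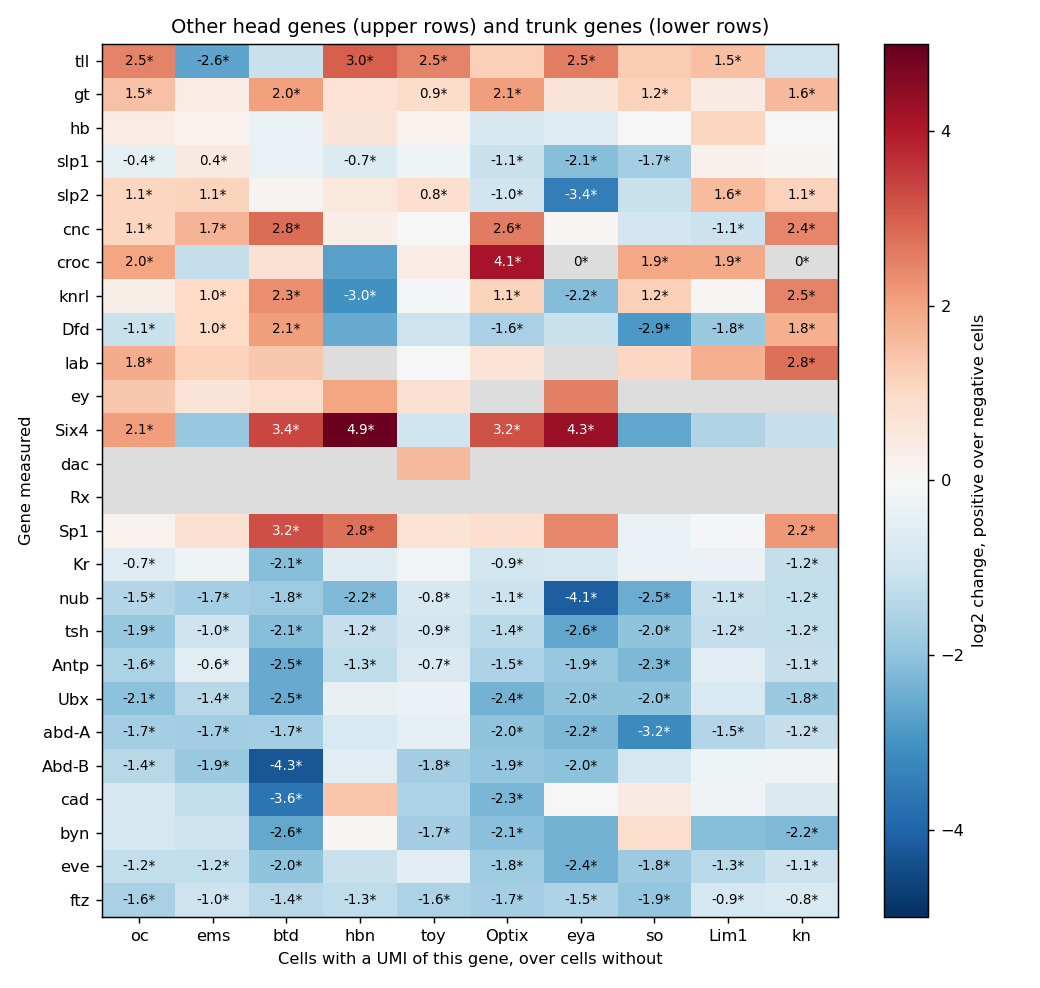
Log2 change of other head genes (upper rows, *tll* to *Sp1*) and trunk and posterior genes (lower rows, *Kr* to *ftz*) in the cells of each of the 10 genes (columns) over other cells. Changes at an adjusted p of 0.05 or less are printed with an asterisk, 0 with an asterisk stands for a gene with 0 UMIs in the positive cells, grey cells were not tested or had 0 UMIs, and all printed trunk values are below 0.

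Trunk and posterior genes fell in the cells of all 10 genes, with 4 of 11 lower in *hbn* cells, 11 of 11 lower in *btd* and *Optix* cells, and 0 higher in any of them. The other head genes split by partner. *tll* rose in *oc*, *hbn*, *toy*, *eya* and *Lim1* cells, and *cnc* in *oc*, *ems*, *btd*, *Optix* and *kn* cells. *croc* rose in *oc*, *Optix*, *so* and *Lim1* cells, though the calls in *so* and *Lim1* cells were lost without replicate 5 (adjusted p = 0.130) and replicate 6 (adjusted p = 0.472). By DESeq2 *croc* did not pass in *so* or *Lim1* cells (adjusted p = 0.0514 and 0.996). That genes passed the test in some of these fits and not in others does not show that the fits differ, which was not tested.

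The pooled table gave each cell a barcode and a numbered suffix (1 to 11), whose meaning the labels do not state. Each of its 1297 barcodes occurred in exactly 1 library, and suffixes 2 to 10 each drew cells from all 7 libraries, so the suffix does not mark the library. The suffix may come from a grouping on these same counts, so differences between suffixes are described without a test. These cells had at least 12504 UMIs and were thinned to 12500. Shares carry 95% exact binomial intervals.

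Most UMIs of 8 of the 10 genes, all but *ems* and *kn*, lay in 4 of the 11 suffixes. These 4 had the most of the 10 genes per cell, on average 1.59 to 3.08, against 0.615 or less in the others. High shares in them follow from that choice and are no independent result. Suffixes 2, 5, 9 and 10 held 204 of 1297 cells (15.7%), and 93.4% of all *Optix* UMIs, 92.9% of *eya*, 92.7% of *hbn*, 81.4% of *so*, 78.3% of *oc*, 70.9% of *toy* and 70.2% of *Lim1*. The same cells held 58.0% of *btd* UMIs, 33.3% of *kn* and 25.3% of *ems*. Of the cells with a UMI in full counts, the 4 suffixes held 60.3% of *oc* cells, 51.1% of *Lim1* cells and 35.8% of *toy* cells, against 80.8% of *Optix* cells. Suffix 3, the largest at 632 cells, held *ems* in 9.34% of its cells (7.18 to 11.9) and *kn* in 5.70% (4.02 to 7.80), against 0.791% (0.257 to 1.84) for *Optix*.

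Suffix 5 (82 cells) held several of the genes. *oc* was detected in 84.1% of its cells (74.4 to 91.3), *Optix* in 50% (38.7 to 61.3), *toy* in 36.6%, *btd* in 32.9%, *eya* in 29.3%, *Lim1* in 26.8% and *hbn* in 23.2%, and 89.0% of its cells held at least 2 of the 10 genes. Its leading genes outside the 10 were *CG14204*, *fd102C* and *Six4*. *so* was at 3.66% there. Suffix 10 (25 cells) paired *oc* (88.0%, 68.8 to 97.5) with *so* (84.0%, 63.9 to 95.5), *toy* (72.0%) and *eya* (36.0%), and had *Optix* in 4.00% of its cells. Suffix 2 (49 cells) had *Optix* in 46.9% (32.5 to 61.7) and *so* in 40.8% (27.0 to 55.8) of its cells, with *mtt*, *Aldh*, *ImpE2* and the terminal gene *hkb* among its leading genes. Suffix 9 (48 cells) had *btd* in 56.2% (41.2 to 70.5) and *kn* in 50% (35.2 to 64.8), led by *gcm*, *ham*, *ttk* and *CrebA*, and its summed mesoderm genes stood at 5150 CPM, against 1763 CPM in the other cells of the table.

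**Figure D5:**
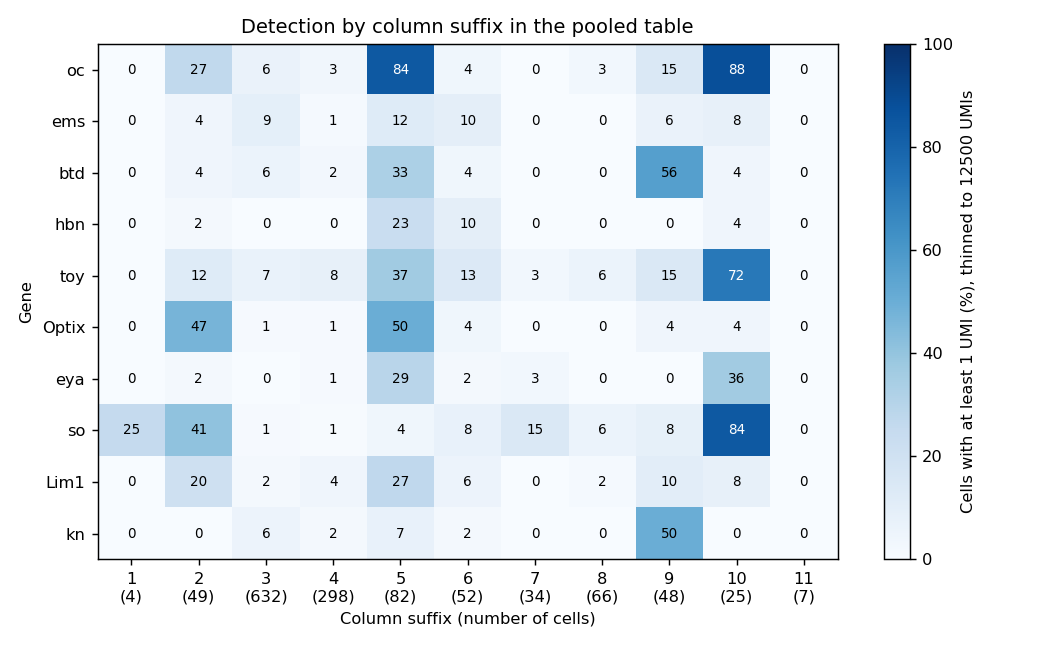
Percent of cells with at least 1 UMI of each gene (rows) in each column suffix of the pooled table (columns, with the number of cells), after thinning to 12500 UMIs. *oc* reaches 84.1% in suffix 5 and 88.0% in suffix 10, *so* is high in suffixes 2 and 10, and *btd* and *kn* in suffix 9.

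Shared cells were also counted within suffixes. Within suffix 5, 14 cells held *hbn* and *eya* where 5.56 were expected from their shares in that suffix, and 9 held *ems* and *Lim1* where 2.68 were expected. *Optix* and *toy*, by contrast, shared 6 cells there where 15 were expected, *Optix* and *Lim1* shared 3 where 11 were expected, and *Optix* and *ems* shared 0 where 5.00 were expected. *so* and *eya* met in suffix 10, in 8 of 25 cells where 7.56 were expected. In suffix 3 *ems* and *kn* shared 20 cells against 3.36 expected, *btd* and *kn* 20 against 2.22, and *ems* and *btd* 19 against 3.64.

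The 10 genes were last compared between the kinds of library. In summed *D. melanogaster* cells, 0 of 8183 genes differed between the mixed-species and single-species libraries by edgeR's quasi-likelihood test (0% higher and 0% lower), with 387 genes at an unadjusted p below 0.05, and DESeq2 called 8. The adjusted p of the 10 genes was 0.967 or above. *btd* averaged 6.89 ± 1.55 CPM in mixed-species libraries (SD, n = 2) and 9.97 ± 1.87 CPM in single-species libraries (SD, n = 5), a log2 change of −0.51 ± 0.21 (SE). *Optix* averaged 13.5 ± 0.838 CPM in mixed-species and 10.5 ± 1.89 CPM in single-species libraries. *eya* was the 1 gene of the 10 whose groups did not overlap (4.08 ± 0.0243 CPM in mixed-species and 4.95 ± 0.528 CPM in single-species libraries), as was the case for 9.59% of all genes tested.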

How the data were processed

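The authors deposited raw UMI counts per gene and barcode for 7 Drop-seq libraries, raw read counts per gene for bulk RNA, and a pooled table of UMI counts for 1297 cells. Per the submitters' processing notes STAR, HTSeq and build BDGP6 were used; versions are not given in the sources used here. Rows without a gene (45.2% no feature, 10.1% not unique of bulk reads) were left out. Barcodes under 90% purity were dropped; doublets within a species were not removed. Gene positions and exon lengths came from annotation BDGP6.54. Levels were tested with edgeR 4.0.16 (TMM scaling, low-count filter, quasi-likelihood, two-sided, FDR 0.05) in R 4.3.3 on counts summed per library, with the library as a block because positive and negative cells come from the same library; a library needed 5 positive cells. Alternatives used DESeq2 1.42.0, RLE scaling, no filter, no block and thinned sums. Other steps used Python 3.11.15, numpy 2.4.6, scipy 1.17.1, pandas 2.3.3 and statsmodels 0.14.6. On simulated data both tests recovered planted changes. For edgeR these were planted in the more abundant genes at the depths of the *oc* sums. Rarer genes and smaller groups of cells were therefore not covered. Named genes were, per fit, up to 5 higher and 3 lower genes with the largest log2 change past the threshold, in 1 direction in every library, with at least 10 CPM in the higher sums. Members and lists (other head, trunk and posterior, mesoderm, dorsal, ventral neurogenic, posterior terminal and gut, pole cell and blood cell genes) were chosen with earlier results of these data known.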

Additional observations from a re-analysis of the deposited data

Results flagged for a closer look

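Among 20 sets of 7 library values (share of cells and CPM of each of the 10 genes), 1 library stood apart from its set. *so* reached 9.87 CPM in summed cells of replicate 6, where the 7 libraries began at 5.15 CPM, and the gap to the next library was 0.656 of the whole range. Chance sets a value apart in about 1 of 20 sets. Replicate 6 also had the fewest thinned cells, 326.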

How the results depend on the processing

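Of 52 called changes of 1 member in the cells of another, 0 changed sign under any setting, 39 passed in every setting that gave a value and 13 fell below the threshold in at least 1 (9 of them without 1 library). RLE scaling and no filter each kept 52 of 52, DESeq2 44 of 51 and sums of thinned counts 38 of 48. Pairs past the threshold numbered 12 at 5000 UMIs and 30 with full counts in depth strata, and the cause was not tested. They numbered 0 without any 1 library, as in the main setting (0 of 29), where 7 libraries already limit what can pass. Leaving out 1 library raises the smallest possible p of the sign-flip test from 0.0156 to 0.03125. At that limit few pairs cannot pass the adjustment, so the 0 does not show whether the pairs depend on 1 library. The log2 odds ratio called 25, but with 0.5 added it was positive for all 45 pairs, also those with 0 shared cells, so that count is no support. With full counts in depth strata all 45 pairs also had a mean excess above 0. Depth still varied within a stratum, so the 30 calls carry that limit. Without the replicate block, called genes numbered 300 (*oc*), 172 (*ems*), 159 (*btd*), 102 (*hbn*), 122 (*toy*), 207 (*Optix*), 140 (*eya*), 133 (*so*), 118 (*Lim1*) and 64 (*kn*), and 49 of 52 member changes were kept. By DESeq2 they numbered 166 (*ems*), 145 (*btd*), 91 (*hbn*), 130 (*eya*), 100 (*so*), 104 (*Lim1*) and 65 (*kn*), and with thinned sums 208 (*oc*), 96 (*ems*), 92 (*toy*), 369 (*eya*) and 293 (*Lim1*). Without 1 library they ranged from 121 to 196 (*hbn*), 141 to 211 (*eya*) and 110 to 188 (*kn*), lowest without replicate 3 in each. Between kinds of library, 29 genes were called with no filter, 8 by DESeq2 and 0 to 19 without 1 library (19 without replicate 3). No paired analysis was possible between them because they share no replicate number. Among uncalled values, *ems* in *eya* cells ranged from −0.39 (without replicate 4) to 0.73 without 1 library. Between kinds of library, *oc* turned to −0.00078 with no filter. Without 1 library *oc* ranged from −0.093 to 0.18, *ems* from −0.084 to 0.14, *so* from −0.21 to 0.016 and *Lim1* from −0.75 to 0.033. Depth limits the rare pairs, since *hbn* and *eya* were detected in 42 and 49 cells.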
